A study of Mus musculus with 8 samples.

Results

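The genes described here encode the initiation and elongation factors of cytoplasmic translation, taken as the probe sets whose only platform symbol begins with Eif1 to Eif6 or with Eef1 or Eef2, without the Eif2ak kinases. The rule found 62 probe sets of 45 genes, of 8251 genes with a probe set of a single symbol. Each gene is given by its probe set with the highest mean over the 8 arrays. The rule itself uses names only, though it was set with earlier results of these data known. It also takes in relatives that are not factors themselves, such as Eef1akmt1, an enzyme that methylates the elongation factor eEF1A. Eif1, Eif2s1 and Eif4g1 had no probe set with a single symbol and are not analysed here.

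The study measured total RNA of mouse follicular B cells on single-colour Affymetrix arrays, in 4 groups of 2 arrays. In every group the B cells carried a B-cell receptor that binds hen egg lysozyme (HEL). In IgM cells this receptor was IgM, and in IgMG cells it was a chimera of IgM whose spacer outside the cell, membrane segment and tail came from IgG1. Cells of each kind were either unstimulated or stimulated with HEL, and the design asks how antigen-induced genes differ between the receptors. Each array held RNA pooled from 2 or 4 mice in the IgM groups and from 5 to 8 mice in the IgMG groups, so receptor and size of pool cannot be told apart. The sources used here do not give the mouse strain or age, the way the receptors were introduced or the length of stimulation. Nothing in the labels says whether arrays shared mice or sorts, so p-values measure the spread between these arrays, which may be partly technical.

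Translation begins when the eIF4F complex, made of the cap-binding protein eIF4E, the helicase eIF4A and the scaffold eIF4G, recruits an mRNA to the small ribosomal subunit. eIF2 brings the initiator tRNA, eIF1 and eIF1A guide the search for the start codon, and the many-subunit eIF3 holds the assembly together until eIF5B joins the large subunit. eEF1 then delivers each aminoacyl-tRNA and eEF2 moves the ribosome along. Resting B cells translate little and enlarge their translation machinery when antigen drives them into growth.

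Values are MAS5 signals, a linear measure of brightness, and changes were tested on log2(signal + 16) with limma over the 7453 brightest of 12422 probe sets, those with a geometric mean signal of at least 22.9. The added 16 understates the change of dim genes. Of the 45 genes, 39 were tested. The other 6 were too dim: Eif4e, Eif4h, Eif4enif1, Eif5a, Eef1g and Eef2k. A gene is said to have risen or fallen when its Benjamini-Hochberg adjusted p was under 0.05, and errors beside log2 changes are standard errors (SE) of the fit. With 2 arrays against 2, an exact permutation test of a single gene cannot go below a two-sided p of 0.333.

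The arrays had median signals of 40.7 to 47.8, and replicate arrays correlated at 0.939 to 0.971 across probe sets. All 9 measured markers of B cells were bright, with summed signals of 24823 to 31299, and 8 markers of T cells summed to 51.8 to 173. Of these, Cd3d, Cd3e and Cd3g stayed at or below 16.2, and Cd4, the one bright enough to test, was at 13.5 to 89.8. A pair of arrays stood apart. The second HEL-stimulated IgM array had a ratio of the 5′ to the 3′ Gapdh probe set, a sign of RNA integrity, of 0.755 against 0.140 to 0.395 on the others. The second unstimulated IgMG array had a summed signal of 17903 for 9 myeloid markers, against 834 to 6293 elsewhere, and of 2536 for 6 NK-cell markers, against 211 to 598 elsewhere. Signals of 4 erythroid markers summed to between 12625 and 20548 on every array. The arrays also differed in sex-linked transcripts, and the part of any of these in the results below was tested only where a value without the array or with a covariate is given.

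HEL raised 9 of the 39 tested factors in IgM cells, and 1 fell. Those that rose were Eif1a, Eif1ax, Eif2s2, Eif3a, Eif3b, Eif3c, Eif3d, Eif4a1 and Eif4e2, all of the initiation groups. The one that fell was Eef1b2, of the elongation group. Only 6 of the 39 tested were elongation genes, so most members were of initiation whatever their response. In IgM cells 4 of these 6 lay above 0, with a median of 0.22. In IgMG cells 2 factors rose with HEL, Eif1a and Eif2s2, and 0 fell. The 10 members past the threshold in IgM cells were 25.6% of those tested, where 14.0% of all tested probe sets passed. For rises the share was 23.1% against 6.70%, and for falls 2.56% against 7.27%. In IgMG cells the 2 members were 5.13% of those tested, where 5.39% of all probe sets passed. Rises made up 5.13% of members against 3.10% of all, and falls 0 members against 2.29% of all. At an unadjusted p under 0.05, limma gave 16 members for the IgM response, 41.0% of those tested against 28.6% of all probe sets. It gave 9 members for the IgMG response, 23.1% against 22.3% of all.

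The median log2 response of the 39 members was 0.26 in IgM cells, with a range of -2.21 to 1.52, and that of all tested probe sets was -0.02. In IgMG cells the median was 0.09, against -0.05 for all. Of the members, 26 of 39 (66.7%) were above 0 in IgM cells, against 48.1% of all probe sets, and 21 of 39 (53.8%) in IgMG cells, against 44.9% of all. The signals of both HEL arrays lay above those of both unstimulated arrays for 20 members in IgM cells, or 51.3%, where this held for 27.6% of all probe sets. In IgMG cells it held for 17 members, or 43.6%, where the share over all probe sets was 23.7%. The reverse, both HEL arrays below both unstimulated ones, held for 8 members (20.5%) in IgM cells against 30.6% of all, and for 10 members (25.6%) in IgMG cells against 29.4% of all. In RNA from whole cell pools, a smaller share of a cell type and less RNA per cell cannot be told apart. The array by array plot of all members and the plot of both responses show how the changes were spread over the roles.

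**Figure D1:**
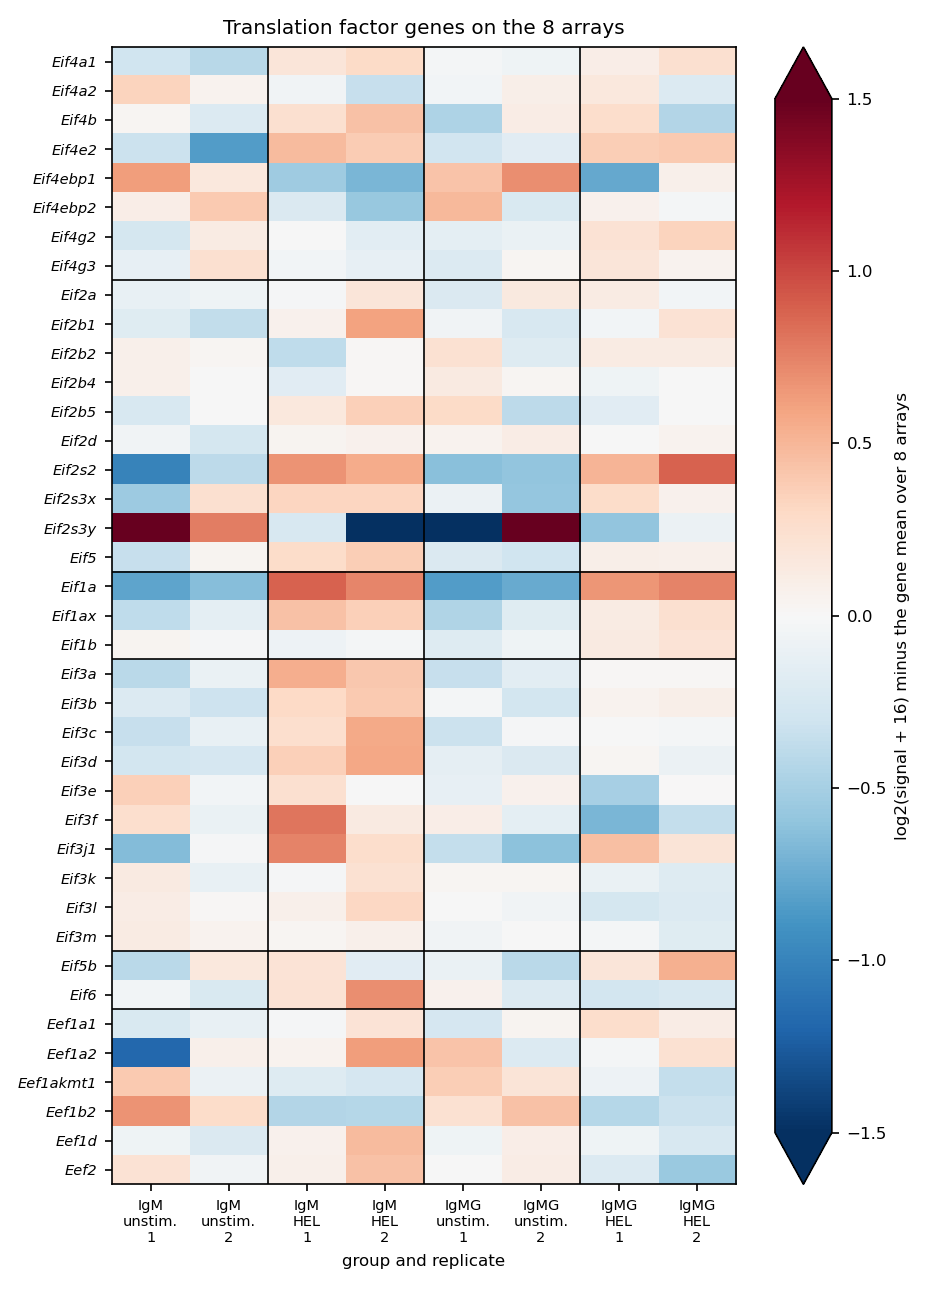
Each row is a member gene, grouped by role, and each column an array; colour is log2(signal + 16) minus the gene's mean over the 8 arrays, with the colour scale ending at 1.5 in either direction, which Eif2s3y exceeds. Eif1a and Eif2s2 are high on all 4 HEL arrays, while Eif3a, Eif3b, Eif3c and Eif3d are highest on both HEL-stimulated IgM arrays.

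**Figure D2:**
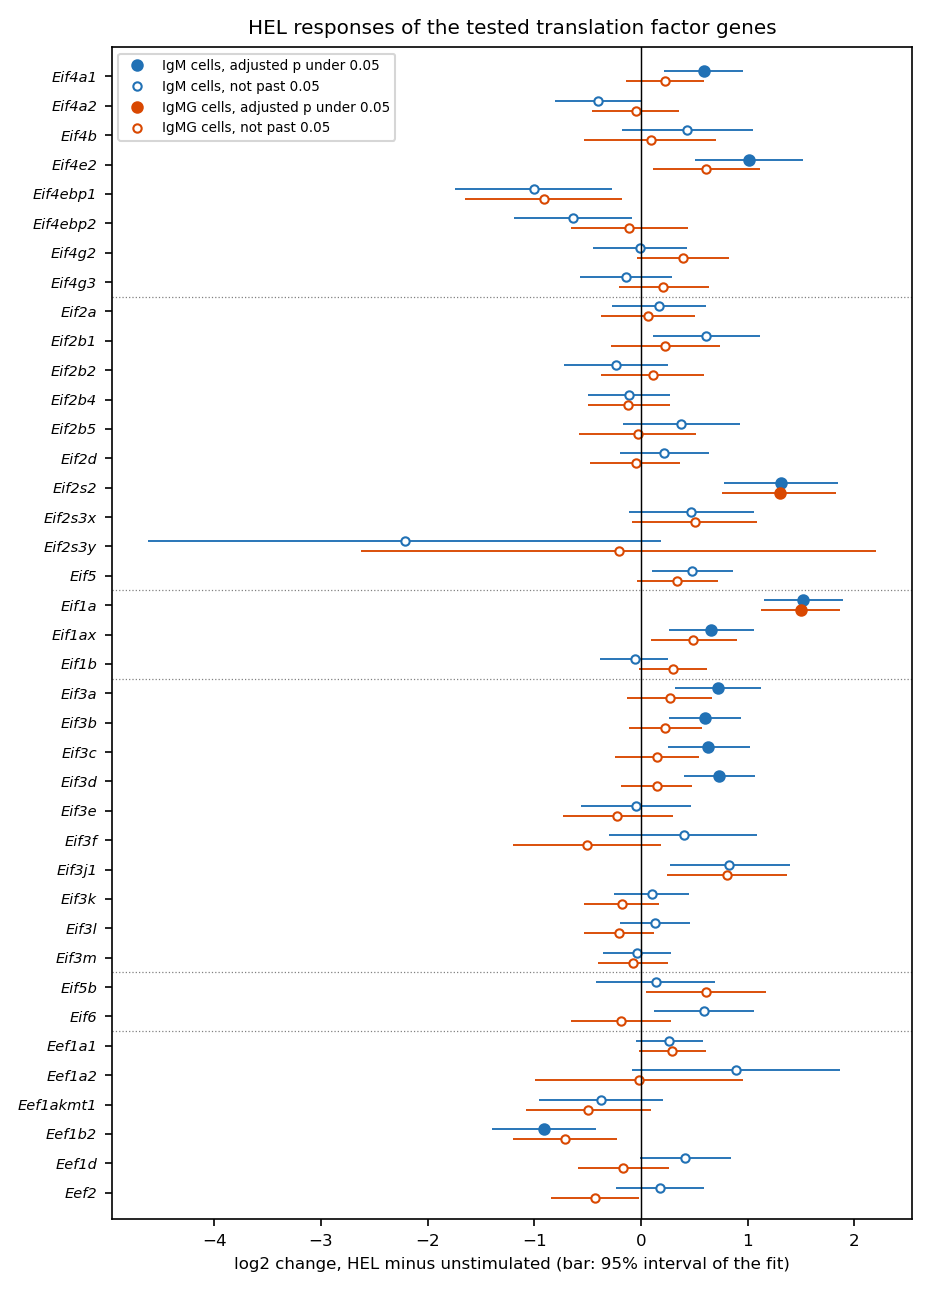
Log2 change with HEL of the 39 tested genes, with the 95% interval of the fit, in IgM cells (blue) and IgMG cells (orange); filled points have an adjusted p under 0.05 over all tested probe sets. Of the 10 filled points in IgM cells only that of Eef1b2 lies below 0, and in IgMG cells only Eif1a and Eif2s2 are filled.

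The stretches before the start sites of 5 of these genes are printed to show what the promoters of members that moved, and of 1 that did not, look like. RefSeq promoter windows of build GRCm38.p6 were found for 37 of the 45 members and for 9 of the 10 that passed in IgM cells, Eif1a having no window. In the 250 bases before each start, 2 motifs were searched on both strands. CACGTG is the E-box bound by Myc and its relatives and reads the same on both strands. CCGGAAG is the core bound by ETS factors and reads CTTCCGG on the other strand. CACGTG cannot overlap the other motif, whereas a CCGGAAG on one strand can share 4 bases with one on the other. Each window below covers 120 bases, written 5′ to 3′ on the gene's strand, with the motifs in capitals. Eif4a1 (chr11:69672553-69672672, minus strand) and Eef2 (chr10:81176511-81176630, plus strand) are shown for CACGTG, the first as the only member past the threshold whose window holds it and the second as a gene that did not pass. Eif3c (chr7:126566375-126566494, minus strand) and Eif3d (chr15:77970835-77970954, minus strand) are shown for CTTCCGG, which Eif3c holds at 2 places. Eif2s2 (chr2:154892907-154893026, minus strand) rose under both receptors and holds neither motif in its 250 bases.
Eif4a1: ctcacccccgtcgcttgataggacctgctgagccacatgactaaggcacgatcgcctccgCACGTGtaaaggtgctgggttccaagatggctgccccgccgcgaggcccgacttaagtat
Eef2: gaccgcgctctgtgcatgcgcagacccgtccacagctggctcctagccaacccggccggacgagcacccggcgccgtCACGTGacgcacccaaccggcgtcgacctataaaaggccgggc
Eif3c: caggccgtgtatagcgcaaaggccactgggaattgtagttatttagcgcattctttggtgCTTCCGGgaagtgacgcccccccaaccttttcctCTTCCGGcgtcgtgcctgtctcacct
Eif3d: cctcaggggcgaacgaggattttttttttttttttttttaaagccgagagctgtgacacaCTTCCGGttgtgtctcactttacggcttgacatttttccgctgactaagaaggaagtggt
Eif2s2: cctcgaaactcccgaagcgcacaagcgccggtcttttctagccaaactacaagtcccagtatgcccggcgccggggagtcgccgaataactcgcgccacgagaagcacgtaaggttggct

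Over all 27025 genes of the promoter table, 6.86% held CACGTG and 7.83% held CCGGAAG on either strand. These genes were not limited to those on the arrays or to those tested. The table has 32851 windows, and a gene counted if any of its windows held the motif. Among the 37 members with a window, 9 held CACGTG and 9 held CCGGAAG, 24.3% for each. CACGTG was found in 1 of the 9 members that passed in IgM cells, in 4 of 23 that were tested and did not pass (Eef2, Eif1b, Eif3f and Eif3k) and in 4 of 5 that were not tested (Eef2k, Eif4e, Eif4h and Eif5a). CCGGAAG was found in 4 of the 9 that passed (Eif1ax, Eif3c, Eif3d and Eif4e2), in 4 of the 23 (Eif1b, Eif3l, Eif3m and Eif4ebp2) and in Eif5a among the untested. These are matches of letters, described without a test.

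Of the 11 genes of the cap-binding complex and its regulators, 8 were tested; 2 rose in IgM cells and none passed in IgMG cells. Eif4a1, the helicase that unwinds the mRNA's 5′ end, had signals of 204 and 187 on the unstimulated IgM arrays and 291 and 313 with HEL. In IgMG cells its signals were 249 and 242 without HEL and 275 and 305 with it. HEL arrays were thus above unstimulated arrays for both receptors. The log2 change was 0.59 ± 0.16 in IgM cells (adjusted p = 0.0433) and 0.23 ± 0.16 in IgMG cells (adjusted p = 0.469). Eif4e2, a cap-binding homologue of eIF4E that represses translation, had signals of 66.4 and 41.8 in unstimulated IgM cells and 128 and 119 with HEL. In IgMG cells they were 68.5 and 76.0, and 117 and 120 with HEL. The groups did not overlap for either receptor. Eif4e2 changed by 1.01 ± 0.22 log2 in IgM cells (adjusted p = 0.0188), and its value in IgMG cells was 0.61 ± 0.22 (adjusted p = 0.147). A second probe set of Eif4e2 gave 0.54 ± 0.27 in IgM cells with an adjusted p of 0.233, so the rise rests on 1 of its 2 probe sets. The probe set that rose is of a kind that can also detect related transcripts.

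Eif4e itself was too dim to test, with signals of 6.90 to 38.4 over the 8 arrays, so nothing is said of its response. Eif4ebp1 and Eif4ebp2 encode proteins that bind eIF4E and keep it from eIF4G until growth signals phosphorylate them. Eif4ebp1 had signals of 81.9 and 54.6 in unstimulated IgM cells and 27.7 and 23.4 with HEL, and of 69.3 and 86.5 in unstimulated IgMG cells and 21.1 and 50.5 with HEL. The HEL arrays were below the unstimulated ones for both receptors, but the log2 values of -1.00 ± 0.32 (adjusted p = 0.0737) and -0.91 ± 0.32 (adjusted p = 0.139) missed the threshold. Eif4ebp2 had signals of 1074 and 1326 in unstimulated IgM cells and 865 and 671 with HEL, a log2 value of -0.64 ± 0.24 (adjusted p = 0.123). In IgMG cells its signals of 1419 and 854, and 1056 and 983 with HEL, overlapped (-0.11 ± 0.24, adjusted p = 0.843). Its second tested probe set gave -0.77 in IgM cells (adjusted p = 0.0691) and 0.55 in IgMG cells (adjusted p = 0.228), so the probe sets differ in sign in IgMG cells. In IgM cells Eif4ebp2 passed in 4 of 25 alternatives, one of them the mean of its probe sets (-0.70, adjusted p = 0.0175), and Eif4ebp1 in 2 of 24, 1 of them a threshold of 0.1. The other tested members, Eif4a2, Eif4b, Eif4g2 and Eif4g3, had log2 values between -0.40 and 0.43 in IgM cells and between -0.05 and 0.39 in IgMG cells. Eif4b gave 0.43 in IgM cells and 0.09 in IgMG cells. Its second tested probe set gave -0.31 (adjusted p = 0.265) and -0.04 (adjusted p = 0.919), so the probe sets differ in sign.

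Among the 10 genes grouped with the ternary complex and its exchange factor, all tested, Eif2s2 rose under both receptors and no other passed. The group was formed by symbol, so it also holds Eif2a and Eif2d, whatever their place in the complex. Their log2 values were 0.17 and 0.22 in IgM cells, and 0.07 and -0.05 in IgMG cells. Eif2s2 encodes the beta subunit of eIF2, which contacts both eIF5 and the exchange factor eIF2B. Its signals were 78.7 and 128 in unstimulated IgM cells and 286 and 263 with HEL. Under the IgMG receptor they were 107 and 110 without HEL and 253 and 333 with it. The 4 HEL arrays all lay above the 4 unstimulated arrays. The change was 1.31 ± 0.24 log2, 2.49-fold, in IgM cells (adjusted p = 0.00832) and 1.30 ± 0.24, 2.46-fold, in IgMG cells (adjusted p = 0.0185). A second, dimmer probe set of Eif2s2, with signals of 47.0 to 81.0, gave 0.17 ± 0.25 (adjusted p = 0.701) and 0.08 ± 0.25 (adjusted p = 0.902). The probe sets thus disagree, and the sources used here do not give where on the transcript their probes lie.

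Eif5, which makes eIF2 hydrolyse its GTP at the start codon, had signals of 518 and 678 in unstimulated IgM cells and 806 and 861 with HEL. The IgMG arrays gave 564 and 536, and 705 and 696 with HEL. HEL arrays were the higher ones for both receptors, with log2 values of 0.48 ± 0.17 (adjusted p = 0.0930) and 0.34 ± 0.17 (adjusted p = 0.270) that missed the threshold. Eif2b5, the catalytic subunit of eIF2B, gave 0.38 ± 0.24 in IgM cells (adjusted p = 0.349; signals 176 and 210, then 236 and 274) and -0.03 ± 0.24 in IgMG cells (adjusted p = 0.964; 261 and 156, then 185 and 210). A second, dimmer probe set of Eif2b5 gave 0.71 ± 0.35 in IgM cells (adjusted p = 0.217) and -0.56 ± 0.35 in IgMG cells (adjusted p = 0.397). The other eIF2B subunits measured, Eif2b1, Eif2b2 and Eif2b4, had log2 values between -0.23 and 0.61 in IgM cells and between -0.12 and 0.23 in IgMG cells.

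The gamma subunit of eIF2 has an X-linked gene, Eif2s3x, and a Y-linked copy, Eif2s3y, and both were uneven between arrays of one group. These genes were picked out after their values were seen. Xist, the RNA of the inactive X chromosome of females, had a signal of 9.30 on the first unstimulated IgM array and 0.900 on the second unstimulated IgMG array, against 161 to 686 on the others. On these arrays Eif2s3x had its lowest signals, 886 and 863, against 1221 to 1634 on the others. Eif2s3y was at 333 and 326 there and between 5.10 and 142 elsewhere. The probe set of Eif2s3y is of a kind that can also detect related transcripts. The labels do not give the sex of the mice. Eif2s3x gave a log2 response of 0.47 ± 0.26 in IgM cells (adjusted p = 0.267) and 0.51 ± 0.26 in IgMG cells (adjusted p = 0.291), and without both arrays lowest in Xist these values were 0.08 and 0.26. Eif2s3y gave -2.21 ± 1.06 in IgM cells (adjusted p = 0.210) and -0.21 ± 1.06 in IgMG cells (adjusted p = 0.940), the widest error of any member. Its value in IgM cells passed once either unstimulated IgMG array was left out (adjusted p = 0.0127 and 0.0136).

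**Figure D3:**
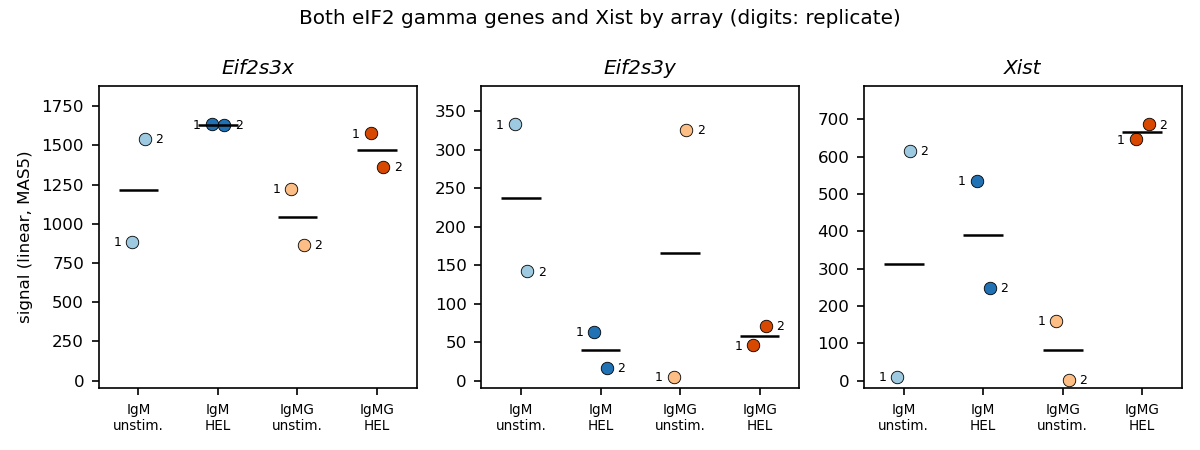
Signals on a linear scale of Xist, Eif2s3x and Eif2s3y on each of the 8 arrays, by group; points are arrays, digits their replicate numbers and bars group means of 2 arrays. The first unstimulated IgM array and the second unstimulated IgMG array are the lowest in Xist and in Eif2s3x and the highest in Eif2s3y.

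Of the 3 start-site genes, 2 rose in IgM cells and 1 in IgMG cells, Eif1a, which had the largest change of any tested member with a positive response. eIF1A binds the small subunit and helps it scan to the start codon. Eif1a had signals of 157 and 176 in unstimulated IgM cells and 535 and 481 with HEL. In IgMG cells it had 152 and 161, and 456 and 487 with HEL. The 4 HEL arrays lay well above the 4 unstimulated arrays, with little spread within a group. The change was 1.52 ± 0.16 log2, 2.87-fold, in IgM cells (adjusted p = 7.93e-04) and 1.50 ± 0.16, 2.83-fold, in IgMG cells (adjusted p = 0.00184). A second probe set rose too, by 1.67 ± 0.19 in IgM cells (adjusted p = 8.85e-04) and 1.28 ± 0.19 in IgMG cells (adjusted p = 0.00703).

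Eif1ax, the X-linked copy of Eif1a, had signals of 240 and 286 in unstimulated IgM cells and 436 and 413 with HEL. In IgMG cells the signals were 229 and 280, and 349 and 379 with HEL. The groups did not overlap for either receptor, and the log2 change was 0.66 ± 0.18 in IgM cells (adjusted p = 0.0391) and 0.49 ± 0.18 in IgMG cells (adjusted p = 0.141). A second probe set of Eif1ax gave -0.10 ± 0.18 (adjusted p = 0.767) and 0.06 ± 0.18 (adjusted p = 0.886). Eif1a and Eif1ax are close copies, and whether each probe set measured one alone is uncertain. Eif1b, a copy of the start-codon gatekeeper eIF1, gave -0.06 ± 0.14 in IgM cells (adjusted p = 0.811) and 0.30 ± 0.14 in IgMG cells (adjusted p = 0.251).

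**Figure D4:**
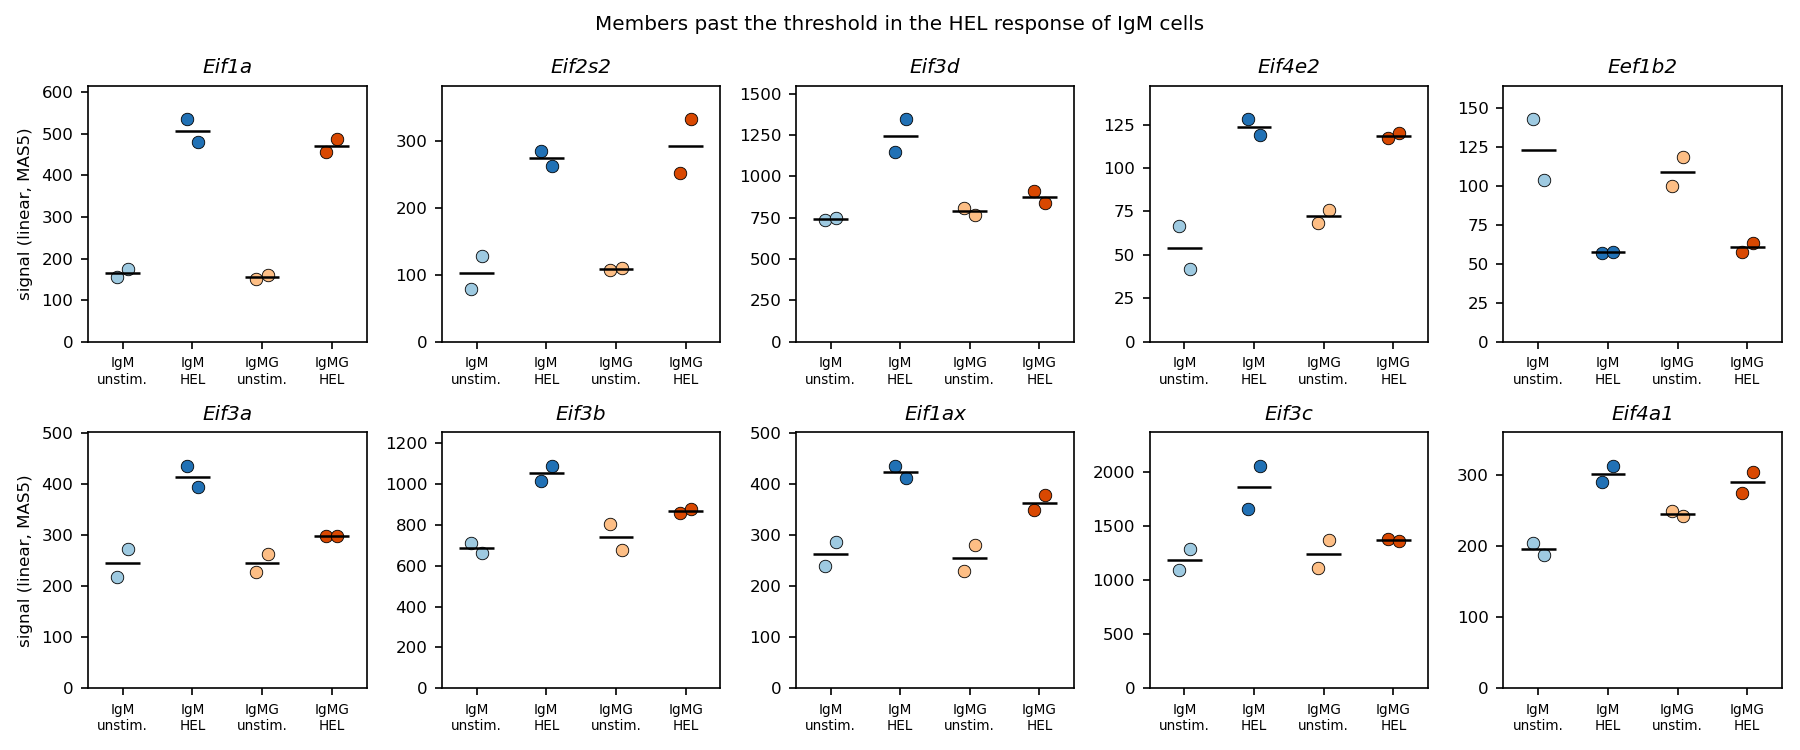
Signals on a linear scale of the 10 genes whose response to HEL had an adjusted p under 0.05 in IgM cells; points are arrays and bars are group means of 2 arrays. Eif1a and Eif2s2 reach similar HEL signals under both receptors, while the Eif3 subunits are highest in HEL-stimulated IgM cells.

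Of the 10 measured subunits of eIF3, 4 rose in IgM cells, Eif3a, Eif3b, Eif3c and Eif3d, and 0 passed in IgMG cells, where Eif3j1 was the subunit with the smallest adjusted p. eIF3a, eIF3b and eIF3c belong to the conserved core of the complex, and eIF3d can itself bind the cap of some mRNAs. Eif3d had signals of 734 and 748 in unstimulated IgM cells and 1148 and 1345 with HEL. Under IgMG they were 811 and 768, and 914 and 839 with HEL. Both HEL-stimulated IgM arrays stood above all the others, and the IgMG groups lay close together without overlap. Its log2 change was 0.73 ± 0.15 in IgM cells (adjusted p = 0.0126) and 0.15 ± 0.15 in IgMG cells (adjusted p = 0.620).

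Eif3a had signals of 218 and 272 in unstimulated IgM cells and 435 and 393 with HEL, a change of 0.72 ± 0.18 log2 (adjusted p = 0.0282). In IgMG cells it had 228 and 262, and 298 on each HEL array (0.27 ± 0.18, adjusted p = 0.417). The HEL-stimulated IgM arrays were again the highest. Eif3b had signals of 713 and 662, and 1016 and 1089 with HEL, in IgM cells, a change of 0.60 ± 0.15 (adjusted p = 0.0306). In IgMG cells it had 806 and 678, and 858 and 878 with HEL (0.23 ± 0.15, adjusted p = 0.424). Here too both HEL-stimulated IgM arrays were above all the others. Eif3c had signals of 1090 and 1284, and 1658 and 2054 with HEL, in IgM cells, a change of 0.63 ± 0.17 (adjusted p = 0.0412). In IgMG cells it had 1107 and 1369, and 1376 and 1357 with HEL (0.15 ± 0.17, adjusted p = 0.676), with overlap of the groups.

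Eif3j1, which encodes a loosely bound subunit, did not pass but had like values under both receptors, 0.83 ± 0.25 in IgM cells (adjusted p = 0.0567) and 0.81 ± 0.25 in IgMG cells (adjusted p = 0.0986). Its signals were 359 and 563, and 967 and 688 with HEL, in IgM cells, and 442 and 368, and 785 and 654 with HEL, in IgMG cells. The HEL arrays were above the unstimulated ones for both receptors. In IgM cells Eif3j1 passed in 8 of 25 alternatives, 1 of them a threshold of 0.1 and others quantile normalization (adjusted p = 0.0472) and the Gapdh covariate (adjusted p = 0.0437). The remaining subunits did not pass. Their log2 values in IgM cells were -0.05 for Eif3e, 0.40 for Eif3f, 0.10 for Eif3k, 0.13 for Eif3l and -0.04 for Eif3m. In IgMG cells they were -0.22 for Eif3e, -0.51 for Eif3f, -0.18 for Eif3k, -0.21 for Eif3l and -0.07 for Eif3m. The median over the 10 subunits was 0.50 in IgM cells and 0.04 in IgMG cells, beside -0.02 and -0.05 for all probe sets tested.

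**Figure D5:**
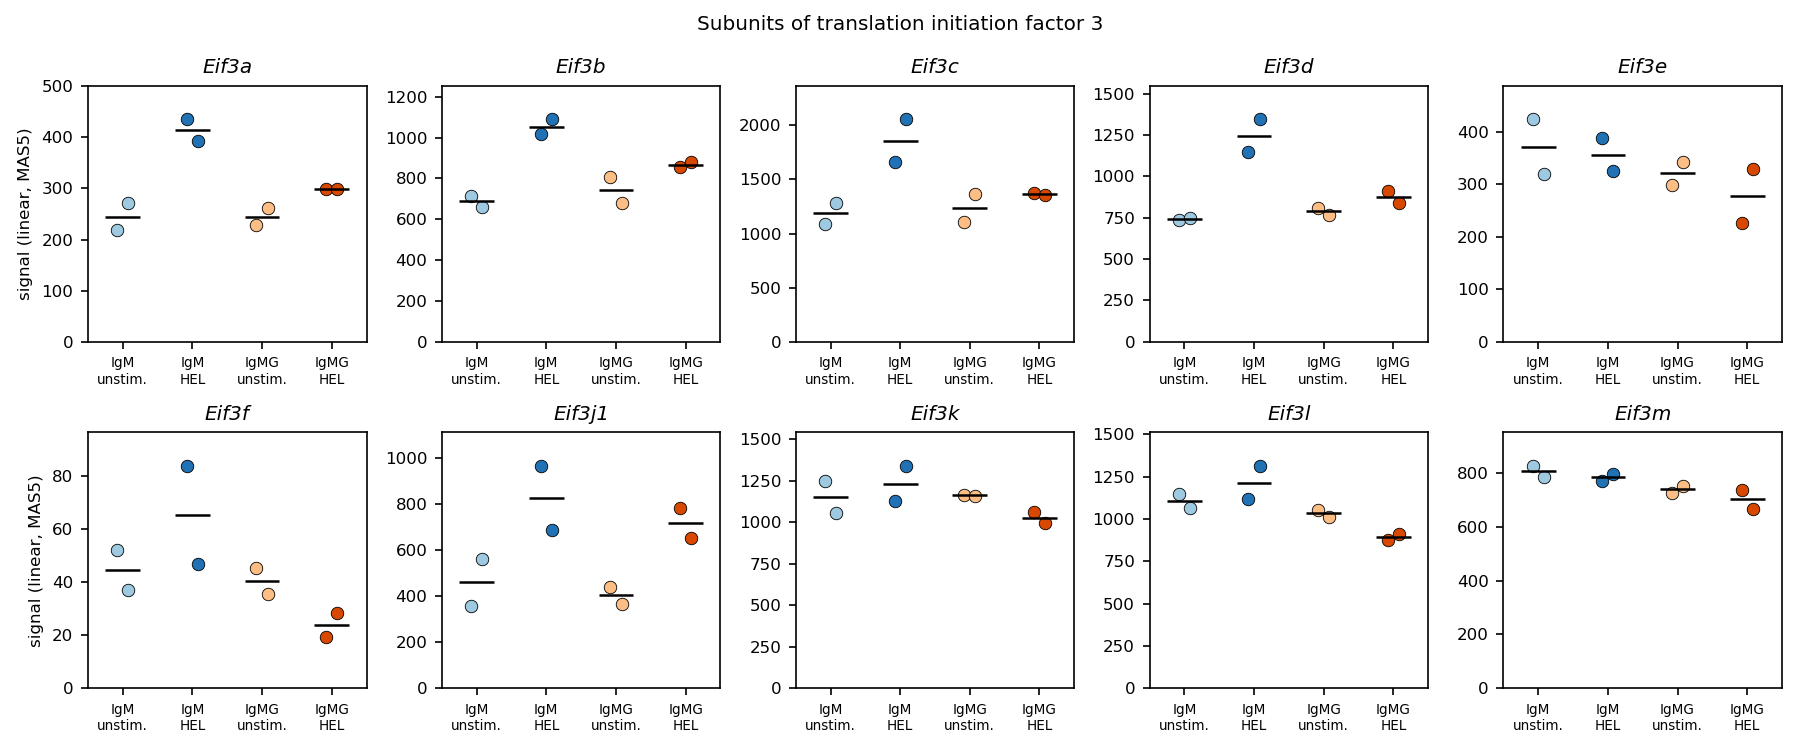
Signals on a linear scale of the 10 measured eIF3 subunits; points are arrays and bars are group means of 2 arrays. Eif3a, Eif3b, Eif3c and Eif3d are highest in HEL-stimulated IgM cells, Eif3j1 is higher with HEL under both receptors, and in 8 of the 10 panels both HEL-stimulated IgMG arrays lie below both HEL-stimulated IgM arrays.

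Of the factors of subunit joining and others, 2 of 3 were tested and 0 passed. Eif5b, the GTPase that joins the subunits, gave 0.14 ± 0.25 in IgM cells (adjusted p = 0.769) and 0.61 ± 0.25 in IgMG cells (adjusted p = 0.185). A second, dimmer probe set of Eif5b gave like values under both receptors, 0.58 ± 0.23 (adjusted p = 0.142) and 0.68 ± 0.23 (adjusted p = 0.132). Eif6, which keeps free large subunits from joining, had signals of 275 and 240 in unstimulated IgM cells and 332 and 470 with HEL, a log2 value of 0.59 ± 0.21 (adjusted p = 0.0945). In IgMG cells its signals were 298 and 244, and 232 and 237 with HEL (-0.19 ± 0.21, adjusted p = 0.653). The HEL arrays were thus the higher pair in IgM cells and the lower pair in IgMG cells. Eif5a, which helps ribosomes past difficult stretches such as runs of proline, was too dim to test, with signals of 3.90 to 29.6.

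Among the elongation genes 6 of 8 were tested, and Eef1b2 was the only one past the threshold. Eef1b2 encodes an exchange factor that recharges eEF1A with GTP. Its signals were 143 and 104 in unstimulated IgM cells and 57.0 and 57.9 with HEL. Under the IgMG receptor they were 99.9 and 119, and 57.8 and 63.5 with HEL. All 4 HEL arrays were below all 4 unstimulated arrays. Eef1b2 fell by 0.91 ± 0.22 log2 in IgM cells (adjusted p = 0.0255), and the value in IgMG cells was -0.71 ± 0.22 (adjusted p = 0.0955). Its second probe set was too dim to test, so this fall rests on 1 probe set.

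Eef1a1, which carries aminoacyl-tRNA to the ribosome, had signals of 8230 and 8921 in unstimulated IgM cells and 9520 and 11111 with HEL. The IgMG arrays gave 8131 and 9922, and 11600 and 10429 with HEL. HEL arrays were higher for both receptors, by amounts that missed the threshold, 0.26 ± 0.14 log2 (adjusted p = 0.253) and 0.29 ± 0.14 (adjusted p = 0.260). Eef2, the translocase, had signals of 2979 and 2474 in unstimulated IgM cells and 2704 and 3490 with HEL, which overlapped (0.18 ± 0.18, adjusted p = 0.571). In IgMG cells the signals were 2555 and 2768, and 2230 and 1739 with HEL (-0.43 ± 0.18, adjusted p = 0.206). Eef2k, the kinase that inhibits eEF2, was too dim to test; it lay at 5.60 to 10.8 on 7 arrays and at 45.8 on the second HEL-stimulated IgM array, the one that stood apart in its Gapdh ratio. Eef1d, another exchange subunit, gave 0.41 ± 0.19 in IgM cells (adjusted p = 0.187) and -0.17 ± 0.19 in IgMG cells (adjusted p = 0.665).

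The difference between the HEL responses, IgMG minus IgM, passed for 0 members by limma, as for 0% of all tested probe sets, and 3 members had an unadjusted p under 0.05, 7.69% against 10.1% of all. These were Eif3d at -0.59 ± 0.21 (95% interval -1.06 to -0.12, adjusted p = 0.445), Eif6 at -0.78 ± 0.29 (adjusted p = 0.465) and Eef2 at -0.61 ± 0.26 (adjusted p = 0.485). A response past the threshold in IgM cells and not in IgMG cells is therefore not shown to differ between them. For Eif1a the difference was -0.02 ± 0.23 with an interval of -0.54 to 0.50, and for Eif2s2 it was -0.02 ± 0.33 with an interval of -0.78 to 0.74, so differences of that size remain possible. The median difference over the 39 members was -0.14, against -0.02 for all probe sets, with 27 members below 0. All 10 eIF3 subunits lay below 0, from -0.90 to -0.03 with a median of -0.36. With each array centred on its own median, 8 of the 10 lay below 0 and the median was -0.26, against 0.08 for all probe sets. A low median was not particular to eIF3. In the main fit the medians of the other roles ran from -0.35 for 6 elongation genes, 4 of them below 0, to 0.22 for 8 genes of the cap complex.

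Between the receptors without HEL, limma passed 0 members, as it did 0% of all probe sets, and 0 members had an unadjusted p under 0.05, against 4.62% of all. The smallest p-values were those of Eif4a1 at 0.31 ± 0.16, Eif4e2 at 0.35 ± 0.22 and Eef1a2, a form of eEF1A typical of muscle and nerve, at 0.67 ± 0.43, each with an adjusted p of 0.995. Eef1a2 had signals of 10.5 and 47.4 in unstimulated IgM cells and 65.2 and 36.3 in unstimulated IgMG cells, which overlapped. With HEL its signals were 46.3 and 76.8 in IgM cells and 42.8 and 54.7 in IgMG cells. The median over members was -0.03, against 0.01 for all probe sets.

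Between the receptors with HEL, limma again passed 0 members, where 0.0134% of all probe sets passed. At an unadjusted p under 0.05 there were 7 members, 17.9% against 13.9% of all. Eef2 at -0.64 ± 0.18, Eif6 at -0.72 ± 0.21 and Eif3d at -0.50 ± 0.15, IgMG minus IgM, had the smallest p-values, each with an adjusted p of 0.242. For 15 members, or 38.5%, both HEL-stimulated IgMG arrays lay below both HEL-stimulated IgM arrays, where this held for 24.5% of all probe sets. They lay above for 5 members, or 12.8%, against 23.8% of all. Of the 15 below, 8 were eIF3 subunits: Eif3a, Eif3b, Eif3c, Eif3d, Eif3f, Eif3k, Eif3l and Eif3m. The 10 subunits ranged from -1.00 to -0.16 with a median of -0.39, against -0.00 for all probe sets. Medians of the other roles ran from -0.19 for 2 genes of joining and others to 0.19 for 8 genes of the cap complex. This comparison uses the same HEL arrays as the difference of responses, so it is no separate evidence.

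Several other values differed among the HEL arrays. Markers of NK cells summed to 336 and 268 on the HEL-stimulated IgM arrays and 598 and 530 on the IgMG ones, with a median log2 value of 0.97 over 5 tested genes. Those of myeloid cells summed to 4379 and 834, and to 4340 and 6293, with a median of 1.25 over 8 tested genes. The myeloid sums of the receptors overlapped, and the second HEL-stimulated IgM array, at 834, was the one far below the rest. None of these genes passed, and the part of the markers in the eIF3 values was not tested. The Gapdh ratio differed too, at 0.328 and 0.755 on the HEL-stimulated IgM arrays and 0.221 and 0.140 on the HEL-stimulated IgMG arrays. With the ratio as a covariate the eIF3 median between the receptors with HEL was -0.32, and 9 of 10 subunits were below 0. Without the second HEL-stimulated IgM array the eIF3 median was -0.35 with 10 of 10 below 0, and without the first -0.38 with 9 of 10. For the 8 subunits whose HEL groups did not overlap, leaving out either array could not change the sign. The subunits were measured on the same arrays, so these counts are not replicates.

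The calls in IgM cells depended on single arrays. Without the first unstimulated IgM array 2 members passed in place of 10, or 5.13% against 4.58% of all probe sets, and without the second HEL-stimulated IgM array it was again 2, against 4.80% of all. In both fits the members' share was thus near that of all probe sets. The count was 4 (10.3%) without the second unstimulated IgM array, against 6.72% of all, and 6 (15.4%) without the first HEL-stimulated one, against 12.1%. It was 5 (12.8%) without the first or the second HEL-stimulated IgMG array, against 9.67% and 9.65%, and 13 (33.3%) without either unstimulated IgMG array, against 17.1%. The share over all probe sets moved in the same direction as the members' count in each of these fits. In IgMG cells the count was 1 (2.56%) without the first or the second HEL-stimulated IgMG array, against 1.25% and 0.778% of all, and 2 in every other such fit. Eif1a kept its call in 8 of 8 such fits for each receptor, at 1.44 to 1.60 in IgM cells. Eif2s2 kept it in 7 of 8 in IgM cells, losing it without the first unstimulated IgM array, with values of 1.01 to 1.62. In IgMG cells it kept the call in 6 of 8, losing it without either HEL-stimulated IgMG array, with values of 1.11 to 1.48. Eif3d (0.62 to 0.85), Eif4e2 (0.76 to 1.27) and Eef1b2 (-1.11 to -0.71) kept theirs in 5 of 8. Eif3c (0.48 to 0.79), Eif3a (0.58 to 0.87) and Eif3b (0.55 to 0.66) lost their calls in most of these fits. So did Eif1ax (0.54 to 0.78) and Eif4a1 (0.53 to 0.65). The HEL and unstimulated groups of all called members did not overlap, so leaving out 1 array could not reverse a sign. With the Gapdh ratio as a covariate 4 members (10.3%) passed in IgM cells, against 8.09% of all probe sets, and 1 (2.56%) in IgMG cells, against 2.19%.

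Genes around the factors were followed with 5 lists of 58 genes in all, of which 46 were tested: 4 rose and 4 fell in IgM cells, and 3 rose and 2 fell in IgMG cells. In IgM cells these 8 were 17.4% of those tested, against 14.0% of all probe sets, with 8.70% for rises and for falls against 6.70% and 7.27%. Under IgMG the 5 were 10.9%, against 5.39% of all, with rises at 6.52% against 3.10% and falls at 4.35% against 2.29%. Among the kinases that phosphorylate eIF2, 1 of 4 fell under both receptors. This was Eif2ak3, the PERK kinase of the endoplasmic reticulum, with signals of 320 and 360, and 98.1 and 95.4 with HEL, in IgM cells, and 283 and 324, and 115 and 110 with HEL, in IgMG cells. It fell by 1.66 ± 0.17 log2 in IgM cells (adjusted p = 7.06e-04) and by 1.31 ± 0.17 in IgMG cells (adjusted p = 0.00434). Among 8 genes of release, recycling and poly(A) binding, Etf1 rose under both receptors and Abce1 rose in IgMG cells. Etf1, the factor that recognises stop codons, had signals of 398 and 426, and 1343 and 1265 with HEL, in IgM cells, and 378 and 350, and 1009 and 978 with HEL, in IgMG cells. Its change was 1.62 ± 0.14 (adjusted p = 2.80e-04) and 1.41 ± 0.14 (adjusted p = 0.00118), and its other 3 tested probe sets rose too under both receptors. Abce1, which splits ribosomes for reuse, gave 0.70 ± 0.16 in IgMG cells (adjusted p = 0.0410) and 0.44 ± 0.16 in IgM cells (adjusted p = 0.103), responses whose difference was 0.26 ± 0.22 (adjusted p = 0.706).

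Of 12 genes that control initiation, 1 rose and 2 fell in IgM cells, and 0 passed in IgMG cells. Ppp1r15a, the phosphatase subunit that reverses eIF2 phosphorylation, had signals of 126 and 145, and 334 and 322 with HEL, a rise of 1.18 ± 0.19 (adjusted p = 0.00507). In IgMG cells its signals were 122 and 147, and 222 and 176 with HEL (0.51 ± 0.19, adjusted p = 0.156). Pdcd4, an inhibitor of eIF4A, had signals of 820 and 971, and 572 and 403 with HEL, and fell by 0.87 ± 0.21 log2 (adjusted p = 0.0291). In IgMG cells Pdcd4 was at 881 and 649, and 842 and 880 with HEL, and the difference of responses, 1.05 ± 0.30, missed the threshold (adjusted p = 0.414). Sesn1 had signals of 900 and 1185, and 256 and 163 with HEL, and fell by 2.25 ± 0.31 log2 in IgM cells (adjusted p = 0.00239). In IgMG cells it was at 900 and 1193, and 718 and 403 with HEL (-0.92 ± 0.31, adjusted p = 0.121). Its difference of responses was 1.33 ± 0.43 (adjusted p = 0.420). Of 18 aminoacyl-tRNA synthetases, 2 rose in IgM cells, Rars by 1.64 ± 0.24 (adjusted p = 0.00300) and Tars by 0.96 ± 0.26 (adjusted p = 0.0418). In IgMG cells Iars rose by 0.71 ± 0.16 (adjusted p = 0.0428) and Vars fell by 1.00 ± 0.18 log2 (adjusted p = 0.0191). Rars gave 0.87 ± 0.24 (adjusted p = 0.0691) and Tars 0.04 ± 0.26 (adjusted p = 0.951) in IgMG cells. Iars gave 0.37 ± 0.16 (adjusted p = 0.172) and Vars -0.36 ± 0.18 (adjusted p = 0.241) in IgM cells. The differences of responses, -0.77 for Rars, -0.92 for Tars, 0.34 for Iars and -0.65 for Vars, missed the threshold. Of 4 mitochondrial translation factors, Mtif2 fell by 0.72 ± 0.20 log2 in IgM cells (adjusted p = 0.0415) and 0 passed in IgMG cells. Mtif2 gave -0.46 ± 0.20 in IgMG cells (adjusted p = 0.208).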

How the data were processed

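RNA of mouse follicular B cells was hybridised to 8 arrays. The values are linear intensities, 1 per probe set and array, that the authors made with MAS5, as the submitters' processing notes state. Trimmed by 2% at each end, the deposited intensities of every array averaged 150.1, so arrays are comparable only if total signal was alike. The sources used here give no other MAS5 setting.

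Groups came from sample titles. From 12488 probe sets, 66 controls were left out. Symbols came from the platform annotation, which gave 1 symbol to 10833 probe sets, several to 396 and none to 1193. The brightest 60% were tested as log2(signal + 16), two-sided, with limma 3.58.1 in R 4.3.3, each of the 4 groups being a coefficient in 1 fit of the 8 arrays, trended eBayes and Benjamini-Hochberg adjustment over all tested probe sets. There were 4 residual and 4.87 prior degrees of freedom, and 2 arrays a group limit precision. The fit was tested on simulated data.

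The members and lists were chosen with earlier results of these data known. Values on every array are given for members past the threshold in a HEL response, for the 3 smallest p-values of each receptor comparison and for Eif4e, Eif4a1, Eif4ebp1, Eif4ebp2, Eif2b5, Eif5, Eif5a, Eif6, Eef1a1, Eef2 and Eef2k. Alternatives covered the offset, scaling, filter, trend, arrays, replicate block, Gapdh ratio, probe set choice and threshold. Promoter windows came from RefSeq, and figures were drawn with matplotlib 3.10.9.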

Additional observations from a re-analysis of the deposited data

Results flagged for a closer look

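In 3 members both HEL arrays moved one way from the unstimulated arrays in IgM cells and the other way in IgMG cells, without overlap of the groups. They were 7.69% of the 39 tested, where 5.02% of all tested probe sets did so. For each the difference of the responses, IgMG minus IgM, was tested with limma and missed the threshold. It was -0.58 for Eef1d (adjusted p = 0.485), whose signals were 388 and 349, and 427 and 573 with HEL, in IgM cells, and 390 and 436, and 388 and 343 with HEL, in IgMG cells. It was -0.78 for Eif6 (adjusted p = 0.465), for which the second HEL-stimulated IgM array, at 470, was the highest. It was 0.36 for Eif1b (adjusted p = 0.529), whose signals were 835 and 796, and 767 and 790 with HEL, in IgM cells, and 704 and 774, and 892 and 933 with HEL, in IgMG cells.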

How the results depend on the processing

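Counts of members past the threshold stood at 10 in IgM and 2 in IgMG cells in the results above. A share of all probe sets passing stands in brackets beside each count of the 39 members. For fits without single arrays the shares are given above where the count moved. In IgM cells the count was 6 with arrays centred on their medians (12.8%), 6 when the fit held the 4 arrays compared alone (12.2%), 6 with no trend (11.0%), 4 with the Gapdh ratio as a covariate (8.09%), 2 at an adjusted p under 0.01 (5.03%) and 4 without both arrays that stood apart (9.55%). As shares of the members, 6, 4 and 2 are 15.4%, 10.3% and 5.13%. Other settings gave 11, or 28.2% of members, with quantile normalization (14.0%) and 14, or 35.9%, at an adjusted p under 0.1 (20.7%). The mean of all probe sets of a gene gave 9, or 23.1% (15.1%). Without the filter it was 7 of 45 members (6.58%), and in the brightest 40% 11 of 35 (22.5%). Offsets of 1 and 64 each gave 10 (13.7% and 13.9%). Leaving out single arrays gave 2 to 13. Among alternatives chosen after seeing the data it was 2 without both arrays lowest in Xist (6.66%) and 5 with Xist as a covariate (12.2%). In IgMG cells the count was 1 with the Gapdh ratio (2.19%), 1 with the mean of all probe sets of a gene (5.94%), 1 at an adjusted p under 0.01 (1.33%), 4 at an adjusted p under 0.1 (10.7%) and 1 with Xist as a covariate (1.42%), and leaving out single arrays gave 1 to 2. Between the receptors without HEL, Eif2s3y went from -1.47 to -3.47 without both arrays that stood apart, a fit that leaves 1 unstimulated IgMG array. That array had an Eif2s3y signal of 5.10. The unstimulated IgM arrays were at 333 and 142, the first of them being among the arrays lowest in Xist. The cause of these changes was not tested. The difference of responses and the receptors with HEL gave 0 members in every alternative run; fitting only the arrays of the comparison is the main fit for the difference. No result changed its direction among those past the threshold. Leaving out 1 array could not have changed it, as their HEL and unstimulated groups did not overlap. Eif1a passed in all 25 alternatives for each receptor. The experiment numbers did not pair the arrays, with correlations of deviations between -0.16 and 0.02, and a replicate block gave 8 members in IgM cells (11.7%) and 2 in IgMG cells (3.66%). A crossed pairing, chosen after seeing the data, gave 8 (12.4%) and 2 (3.88%). With 2 arrays a group and dim probe sets near background, changes of Eif4e, Eif5a and Eef2k were not measurable here.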
